A study of Mus musculus with 13 samples.

Results

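The epidermal differentiation genes are 35 genes named by symbol that keratinocytes of the skin switch on as they leave the basal layer. Of these, 34 had a row among the 24394 symbols of the count table, and Flg was not analysed here. The remaining genes fall by role into structural precursors of the cornified envelope, suprabasal keratins and corneodesmosin, transglutaminases and a caspase, lipid barrier genes, kallikreins with their inhibitors, secreted and metal- or calcium-binding proteins, and 2 surface or signalling proteins. The libraries that were compared fall into 6 groups, and 33 of the genes passed the filter on low counts in at least 1 of them. Csta1 did not pass, with counts in a single library. The question was how far fibroblasts programmed by Foxn1 take up these skin genes, and how their levels compare with those of thymic epithelial cells of the fetus.

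The transcription factor Foxn1 is required for thymic epithelial cells (TEC) to form, and it also acts in keratinocytes of the skin and in hair follicles. In the epidermis, differentiating keratinocytes make precursor proteins such as loricrin and the small proline-rich proteins, which transglutaminases cross-link into the cornified envelope. Lipoxygenases and lipid transporters build the lipid part of the barrier, and kallikrein proteases later cut the junctions between dead cells. Some cells of the thymic medulla are known to express many of these genes as well.

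The cells compared were induced TEC (iTEC) at day 10 after Cre (n = 3) and day 2 after Cre (n = 2), iTEC of day 12 sorted as Epcam-positive (n = 2) or Epcam-negative (n = 2), fetal TEC of E15.5 (n = 2), and mouse embryonic fibroblasts (MEF) of E13.5 (n = 2). The fibroblasts were primary iFoxn1/+ cells passaged at most 5 times. Their inducible copy of Foxn1 was switched on by nucleofection of a Cre plasmid, pPGK-Cre-bpA, driven by the PGK promoter. The genotype of every sample is labelled N/A, and MEF values come from count columns named for cultures without Cre, since no other labelled fibroblasts lack it. The labels do not say that replicates came from separate cultures or embryos, so p-values may measure technical spread. Pooling is not stated, and no library of skin or keratinocytes was analysed here.

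Promoter sequences are given first for the genes on which the comparison with fetal TEC turned. Mt4, Calm4, Lypd3 and Abca12 were higher in day 10 iTEC than in fetal TEC, and Sprr2a1 and Krtdap were lower. The stretches are RefSeq promoter sequence on GRCm38.p6, 5′ to 3′ on the gene's strand. Each starts 250 bases before the RefSeq start and ends before the more upstream of the RefSeq and GENCODE starts. Capitals mark matches to GACGC, the core bound by Foxn1, and to TGANTCA, the AP-1 site, on both strands, and to TATAAA on the gene's strand.
Mt4 (chr8:94136954-94137196, plus strand): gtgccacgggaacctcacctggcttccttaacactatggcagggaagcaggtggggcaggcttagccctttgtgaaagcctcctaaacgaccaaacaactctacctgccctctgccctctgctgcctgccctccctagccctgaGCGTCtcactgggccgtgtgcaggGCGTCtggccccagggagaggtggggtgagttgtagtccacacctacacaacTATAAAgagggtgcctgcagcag
Calm4 (chr13:3837507-3837756, plus strand): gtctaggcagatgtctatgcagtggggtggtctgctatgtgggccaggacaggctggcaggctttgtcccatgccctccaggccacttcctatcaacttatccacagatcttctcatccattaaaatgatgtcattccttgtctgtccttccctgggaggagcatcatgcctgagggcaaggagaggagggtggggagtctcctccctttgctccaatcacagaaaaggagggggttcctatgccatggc
Lypd3 (chr7:24636320-24636549, plus strand): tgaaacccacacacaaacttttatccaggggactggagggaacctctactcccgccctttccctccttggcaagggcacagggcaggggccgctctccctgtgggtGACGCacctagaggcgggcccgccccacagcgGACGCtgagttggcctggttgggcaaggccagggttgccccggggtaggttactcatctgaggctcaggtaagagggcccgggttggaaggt
Abca12 (chr1:71414911-71415160, minus strand): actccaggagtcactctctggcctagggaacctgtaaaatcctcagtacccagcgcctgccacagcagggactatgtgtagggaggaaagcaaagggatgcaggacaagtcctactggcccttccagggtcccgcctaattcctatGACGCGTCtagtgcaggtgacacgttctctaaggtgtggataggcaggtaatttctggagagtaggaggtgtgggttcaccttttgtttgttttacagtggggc
Sprr2a1 (chr3:92215585-92215798, plus strand): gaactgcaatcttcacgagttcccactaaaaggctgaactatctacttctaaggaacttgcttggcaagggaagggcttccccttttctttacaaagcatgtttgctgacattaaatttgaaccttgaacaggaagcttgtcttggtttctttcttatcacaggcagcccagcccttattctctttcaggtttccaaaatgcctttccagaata
Krtdap (chr7:30787655-30787895, plus strand): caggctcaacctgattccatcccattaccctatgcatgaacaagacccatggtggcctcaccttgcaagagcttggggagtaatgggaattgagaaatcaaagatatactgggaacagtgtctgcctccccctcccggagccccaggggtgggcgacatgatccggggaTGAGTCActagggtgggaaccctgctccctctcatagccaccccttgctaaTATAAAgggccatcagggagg
Mt4 and Lypd3 each held 2 matches to GACGC, and Abca12 held 2 that overlap on opposite strands. Calm4 and Sprr2a1 held no match to any of the 3 motifs in these stretches, and Krtdap held TGANTCA and TATAAA once each.

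RefSeq promoters were found for 31 of the 35 genes; Spink5, Aloxe3, Krt1 and Aldh3b2 had no entry. Over the full 250 bases before the start, GACGC was present in 4 of the 31 (12.9%), against 22.6% of all 27025 promoters of the same length. These were Abca12, Alox12b, Lypd3 and Mt4, each higher in day 10 iTEC than in fetal TEC, a pattern noticed after the values were seen. TGANTCA was present in 32.3% of the 31 promoters, against 6.87% of all promoters, and TATAAA in 35.5% against 8.12%. AACCNGTT, a Grainyhead site, was present in 3.23% of the 31 promoters and in 1.71% of all. A match describes the letters and not binding.

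Libraries held 35805780 to 86465460 counts, and 3 counts in 1 library equal 0.03 to 0.0776 CPM, the unit of level used here (counts scaled to a common library size by TMM). Foxn1 stood at 422 to 440 CPM in day 10 iTEC, 299 and 382 CPM in day 2 iTEC, 292 to 468 CPM in the sorted cells, 362 CPM in both fetal TEC libraries and 13 to 18.3 CPM in MEF. Epcam, the gene of the sort marker, stood at 4.8 and 30.6 CPM in cells sorted as positive, 0.56 and 0.29 CPM in those sorted as negative, and 312 and 574 CPM in fetal TEC. In day 10 iTEC it stood at 5.03, 5.05 and 5.53 CPM, so Epcam-positive replicate 1 did not exceed day 10 iTEC. Both fetal TEC libraries and replicate 2 of the Epcam-positive cells stood apart: across genes, counts and transcript length had a rank correlation of -0.036 to 0.019 in them, against 0.306 to 0.35 in the other 10 libraries. Xist was high and Y-linked genes were near 0 in MEF and Epcam-negative libraries, and the reverse held in day 2, day 10 and Epcam-positive libraries, so these groups also differ in the sex of their cells. Fetal TEC carried both. Genes of thymocytes summed to 1261 and 460 CPM in fetal TEC and to at most 2.94 CPM elsewhere. Genes of macrophages summed to 223 and 53.9 CPM in Epcam-positive cells, 12.3 to 19.2 CPM in the other iTEC libraries, 427 and 419 CPM in fetal TEC and 2989 and 2774 CPM in MEF. Endothelial genes summed to at most 36.7 CPM in iTEC, 84.9 and 35.3 CPM in fetal TEC and 4.51 and 4.76 CPM in MEF, and fibroblast genes to 14158 to 15297 CPM in day 10 iTEC, 4175 and 2077 CPM in fetal TEC and 58234 and 57023 CPM in MEF. The part of these cells in the results was not tested.

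The summed level of the 34 genes changed little by day 2 and was far higher at day 10. By library size, the sum was 19.6 and 20 CPM in MEF, 25.8 and 26.1 CPM at day 2, and 718, 714 and 735 CPM at day 10. On day 12 it was 631 and 2386 CPM in Epcam-positive cells and 224 and 156 CPM in Epcam-negative cells, and in fetal TEC 1344 and 1460 CPM. The makeup of the sum differed between groups. Mt4 took 24.8 to 25.2% and Alox12b 17 to 19.4% of it in day 10 iTEC, Calm4 took 56.6% of it in Epcam-positive replicate 2, and in fetal TEC Sprr2a1 took 29.7 and 25.8%. In bulk RNA, fewer cells of a type and less RNA per cell cannot be told apart.

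**Figure D1:**
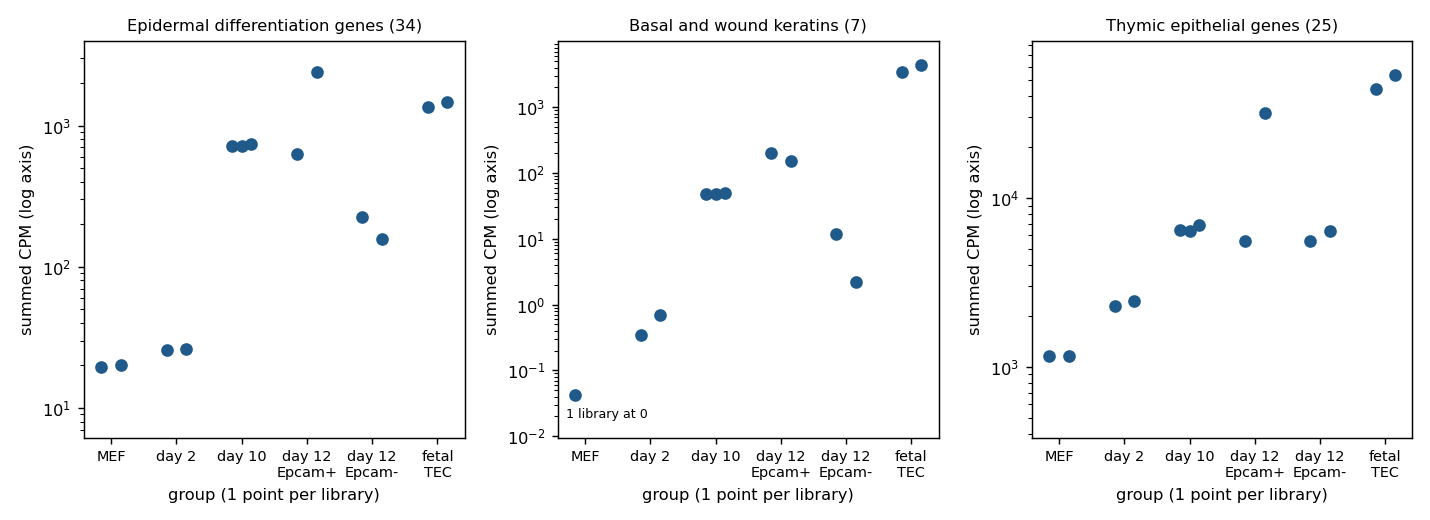
Summed CPM by library size (log axis) of the 34 epidermal differentiation genes, the 7 basal and wound keratins and the 25 thymic epithelial genes, with 1 point for each of the 13 libraries. The epidermal sum lay at 714 to 735 CPM in day 10 iTEC and at 1344 and 1460 CPM in fetal TEC, while the basal and wound keratins lay at 47.1 to 49.7 CPM in day 10 iTEC and at 3411 and 4313 CPM in fetal TEC.

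Of the 34 genes, 18 had their highest group mean in fetal TEC, 8 in day 10 iTEC and 8 in Epcam-positive cells. None was highest in day 2 iTEC, Epcam-negative cells or MEF. A mean of at least 5 CPM in some group was reached by 26 genes, and their values are given by library. At day 2, Sfn stood at 2.81 and 3.65 CPM, Klk8 at 2.47 and 2.55 CPM and Krt10 at 2.1 and 1.97 CPM. Sprr1a stood there at 1.63 and 1.12 CPM, Sbsn at 1.27 and 0.662 CPM and Cdsn at 0.326 and 0.299 CPM. Klk8 thus lay above its day 10 and MEF values, and Cdsn below its MEF values. Apart from Elovl4 and Sprr2a1, given below, the rest stayed at or below 0.195 CPM at day 2. Gene positions are those of GENCODE M21 on mm10.

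**Figure D2:**
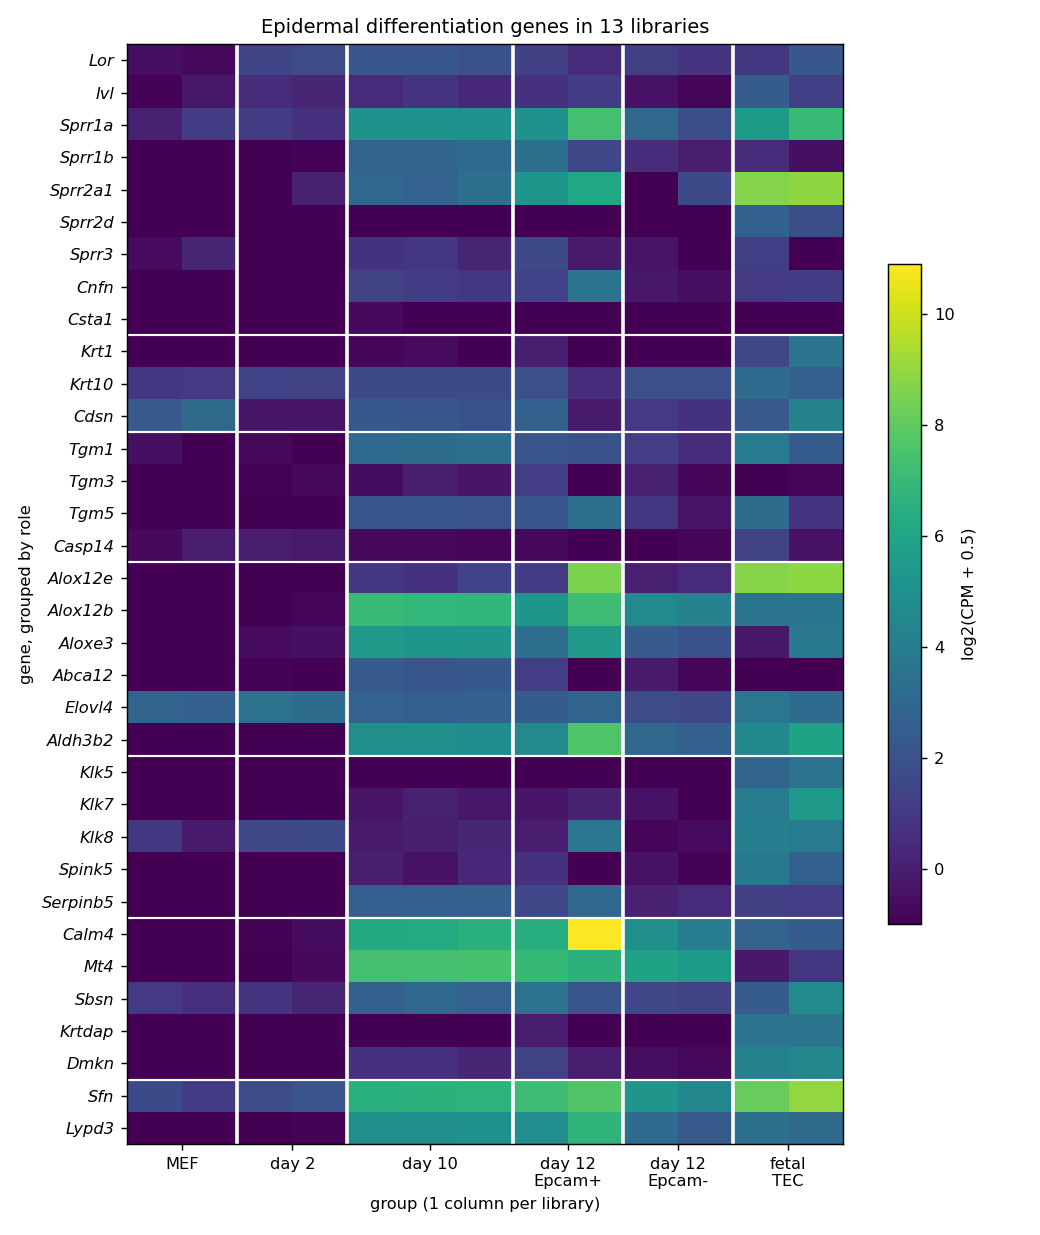
Level of each gene (log2 of CPM + 0.5, colour) in the 13 libraries, 1 column each, with genes grouped by role and white lines between groups. Mt4, Calm4 and Alox12b are bright in the day 10 and day 12 columns, while Klk5, Klk7 and Krtdap are bright only in the fetal TEC columns.

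Among precursors of the cornified envelope, the Sprr genes of the epidermal differentiation complex on chromosome 3 showed opposite orders of groups. Sprr2a1 (92215799 to 92221911, plus strand), a small proline-rich envelope protein, stood at 7.72, 6.28 and 9.8 CPM in day 10 iTEC, 38.1 and 68.3 CPM in Epcam-positive cells, 0 and 2.68 CPM in Epcam-negative cells and 408 and 486 CPM in fetal TEC. It had 0 and 0.572 CPM at day 2 and no count in MEF. Every fetal TEC value lay above every iTEC value. Sprr1b, of the same family (92436809 to 92438789, minus strand), stood at 6.35, 6.84 and 7.96 CPM in day 10 iTEC, 10 and 2.44 CPM in Epcam-positive cells, 0.948 and 0.44 CPM in Epcam-negative cells, 0.827 and 0.203 CPM in fetal TEC and 0 in MEF. Here the day 10 and Epcam-positive values lay above those of fetal TEC. Sprr1a (92483952 to 92485895, minus strand) stood at 32.9, 34.1 and 32.2 CPM in day 10 iTEC, 34.7 and 162 CPM in Epcam-positive cells, 7.37 and 3.16 CPM in Epcam-negative cells, 44.5 and 128 CPM in fetal TEC and 0.525 and 1.62 CPM in MEF. Sprr2d was counted in fetal TEC alone, at 6.02 and 3.12 CPM. The Sprr2 genes are near-identical copies whose reads the counting could have split, so the level of any single one is uncertain.

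The remaining envelope precursors were low. Cnfn (cornifelin, an envelope protein) stood at 2.03, 1.59 and 1.4 CPM in day 10 iTEC, 2.15 and 11.3 CPM in Epcam-positive cells, 0.345 and 0.17 CPM in Epcam-negative cells, 1.56 and 1.6 CPM in fetal TEC and 0 in MEF. Lor, loricrin, the main protein of the envelope, stood at 4.13, 4.2 and 3.41 CPM in day 10 iTEC, 2.3 and 2.83 CPM in day 2 iTEC, 1.38 and 4.18 CPM in fetal TEC and 0.18 and 0.12 CPM in MEF. Ivl (involucrin) reached at most 5.01 CPM and Sprr3 at most 2.63 CPM in any library. Genes of loricrin and involucrin, the defining envelope proteins, thus stayed at or below 4.2 CPM in every iTEC library.

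Suprabasal keratins stayed low in iTEC. Krt1, which with Krt10 forms the filaments of suprabasal keratinocytes, stood at 0.0774, 0.128 and 0 CPM in day 10 iTEC, 0.506 and 0 CPM in Epcam-positive cells, and 2.39 and 11 CPM in fetal TEC. It had no count in Epcam-negative cells, day 2 iTEC or MEF. Krt10 stood at 2.54, 2.56 and 2.64 CPM in day 10 iTEC, 3.19 and 0.924 CPM in Epcam-positive cells, 3.28 and 3.29 CPM in Epcam-negative cells, 8.44 and 5.68 CPM in fetal TEC and 1.37 and 1.44 CPM in MEF. Fetal TEC lay above all other libraries for both keratins. Cdsn (corneodesmosin, an adhesive protein of the cornified layer) stood at 4.35, 4.15 and 3.46 CPM in day 10 iTEC, 5.99 and 0.411 CPM in Epcam-positive cells, 1.51 and 1.16 CPM in Epcam-negative cells, 4.43 and 19.4 CPM in fetal TEC and 4.44 and 8.16 CPM in MEF. The day 10 values lay just under the lower value of both fetal TEC and MEF.

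Of the cross-linking enzymes, Tgm1 and Tgm5 in day 10 iTEC lay within the range of the fetal TEC libraries. Tgm1, the membrane-bound transglutaminase of the envelope, stood at 8.42, 8.79 and 9.62 CPM in day 10 iTEC, 3.88 and 3.47 CPM in Epcam-positive cells, 1.75 and 0.921 CPM in Epcam-negative cells, 14.1 and 4.99 CPM in fetal TEC and 0.193 and 0 CPM in MEF. Tgm5, a second transglutaminase, stood at 3.98, 4.12 and 3.65 CPM in day 10 iTEC, 3.98 and 9.24 CPM in Epcam-positive cells, 1.39 and 0.28 CPM in Epcam-negative cells, 8.81 and 1.26 CPM in fetal TEC and 0 in MEF. Tgm3 stayed at or below 1.76 CPM in every library. Casp14, the caspase that processes filaggrin, stayed at or below 1.93 CPM.

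The lipid barrier genes went both ways between day 10 iTEC and fetal TEC, with 2 called higher, 1 lower and 3 not called. Alox12b (chromosome 11, 69156989 to 69169792, plus strand), the lipoxygenase that starts oxidation of the linoleate of ceramides, stood at 129, 118 and 115 CPM in day 10 iTEC, 38.1 and 147 CPM in Epcam-positive cells, 24.5 and 18.7 CPM in Epcam-negative cells, 11.5 and 12 CPM in fetal TEC and 0 in MEF. Aloxe3, its neighbour upstream on the same strand and the next enzyme of the step, stood at 41.3, 37.6 and 36.6 CPM in day 10 iTEC, 9.38 and 42.8 CPM in Epcam-positive cells, 4.76 and 3.48 CPM in Epcam-negative cells, 0.352 and 13.4 CPM in fetal TEC and 0 in MEF. All 3 day 10 libraries exceeded fetal TEC for both genes. Alox12e (70315610 to 70322628, minus strand), an epidermal lipoxygenase of the mouse on the same chromosome, stood at 1.33, 1.13 and 2.12 CPM in day 10 iTEC, 1.68 and 379 CPM in Epcam-positive cells, 0.517 and 0.891 CPM in Epcam-negative cells, 427 and 478 CPM in fetal TEC and 0 in MEF. It was high in exactly the 3 libraries whose counts did not rise with transcript length.

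The other lipid genes did not share 1 pattern. Aldh3b2, an aldehyde dehydrogenase that acts on lipid aldehydes, stood at 29, 29.8 and 27 CPM in day 10 iTEC, 24.1 and 195 CPM in Epcam-positive cells, 7.56 and 5.7 CPM in Epcam-negative cells, 23 and 59.3 CPM in fetal TEC and 0 in MEF. Abca12, the lipid transporter of lamellar granules, stood at 4.88, 4.1 and 4.37 CPM in day 10 iTEC, 1.71 and 0 CPM in Epcam-positive cells and 0.402 and 0.0801 CPM in Epcam-negative cells, with no count in fetal TEC or MEF. Elovl4, an elongase of very long fatty acids, stood at 6.13, 5.53 and 5.84 CPM in day 10 iTEC, 5.2 and 6.73 CPM in Epcam-positive cells, 2.89 and 2.46 CPM in Epcam-negative cells, 12.3 and 8.54 CPM in fetal TEC and 6.56 and 5.86 CPM in MEF, so that day 10 iTEC and MEF overlapped.

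Kallikreins were counted mainly in fetal TEC. The 3 genes lie together on chromosome 7 (43797577 to 43851181) and encode proteases that shed dead keratinocytes. Klk5 stood at 6.6 and 10.5 CPM in fetal TEC and had no count in any iTEC or MEF library. Klk7 stood at 0.279, 0.538 and 0.362 CPM in day 10 iTEC, 0.322 and 0.616 CPM in Epcam-positive cells, 0.259 and 0 CPM in Epcam-negative cells, 14.5 and 42.3 CPM in fetal TEC and 0 in MEF. Both were thus highest in fetal TEC by a wide gap. Klk8 stood at 0.402, 0.487 and 0.724 CPM in day 10 iTEC, 0.449 and 12.4 CPM in Epcam-positive cells, 0.0575 and 0.14 CPM in Epcam-negative cells, 17.1 and 14 CPM in fetal TEC and 1.4 and 0.401 CPM in MEF, again high in the same 3 libraries as Alox12e. Spink5, the inhibitor of these proteases, stood at 0.495, 0.256 and 0.776 CPM in day 10 iTEC, 1.12 and 0 CPM in Epcam-positive cells, 0.244 and 0.05 CPM in Epcam-negative cells, 13.4 and 6.04 CPM in fetal TEC and 0 in MEF. Serpinb5 (maspin, an epithelial serpin) ran the other way, at 5.31, 5.38 and 5.87 CPM in day 10 iTEC, 2.38 and 7.29 CPM in Epcam-positive cells, 0.575 and 0.861 CPM in Epcam-negative cells, 1.88 and 1.76 CPM in fetal TEC and 0 in MEF.

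Mt4 and Calm4 were the most abundant epidermal transcripts of day 10 iTEC per unit of length, and both had few counts at day 2. Mt4 (chromosome 8, 94137197 to 94139031, plus strand), the metallothionein of stratified squamous epithelia, stood at 167, 162 and 171 CPM in day 10 iTEC, 126 and 101 CPM in Epcam-positive cells, 57 and 44.2 CPM in Epcam-negative cells, 0.368 and 1.32 CPM in fetal TEC and 0 in MEF. Calm4 (chromosome 13, 3837757 to 3838673, plus strand), a calmodulin-like protein of differentiating mouse epidermis, stood at 75.5, 76.2 and 93.1 CPM in day 10 iTEC, 87.7 and 1916 CPM in Epcam-positive cells, 30 and 16.2 CPM in Epcam-negative cells, 6.36 and 4.99 CPM in fetal TEC and 0 in MEF. In every day 10 and day 12 library, both genes exceeded both fetal TEC libraries. Per kilobase of the longest transcript, the day 10 mean level was 419 CPM for Mt4, 89 CPM for Calm4, 61.6 CPM for Sfn and 49.7 CPM for Alox12b, while in fetal TEC the highest were 243 CPM for Sfn, 187 CPM for Alox12e and 149 CPM for Sprr2a1.

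Sbsn, Dmkn and Krtdap, neighbours on chromosome 7 (30751471 to 30791097, plus strand) that encode secreted proteins of the suprabasal epidermis, were highest in fetal TEC. Krtdap stood at 11.1 and 11.4 CPM in fetal TEC and 0.426 CPM in Epcam-positive replicate 1, with no count elsewhere. Dmkn stood at 1.1, 1.08 and 0.724 CPM in day 10 iTEC, 2.05 and 0.488 CPM in Epcam-positive cells, 0.172 and 0.1 CPM in Epcam-negative cells, 18.2 and 21.4 CPM in fetal TEC and 0 in MEF. Sbsn stood at 5.68, 7.46 and 6.21 CPM in day 10 iTEC, 10.7 and 4.08 CPM in Epcam-positive cells, 2.43 and 1.94 CPM in Epcam-negative cells, 4.98 and 25.6 CPM in fetal TEC and 1.49 and 1 CPM in MEF. Only Sbsn of the 3 overlapped between day 10 iTEC and fetal TEC.

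Sfn and Lypd3 were counted in iTEC and fetal TEC alike. Sfn, stratifin, a 14-3-3 protein of stratified epithelia, stood at 95.1, 99.4 and 103 CPM in day 10 iTEC, 146 and 204 CPM in Epcam-positive cells, 36.8 and 22 CPM in Epcam-negative cells, 284 and 499 CPM in fetal TEC and 2.68 and 1.6 CPM in MEF. Lypd3, a surface protein of suprabasal keratinocytes, stood at 29.8, 30.1 and 30.7 CPM in day 10 iTEC, 28.3 and 107 CPM in Epcam-positive cells, 8.58 and 4.69 CPM in Epcam-negative cells, 9.91 and 8.13 CPM in fetal TEC and 0 in MEF. Sfn was highest in fetal TEC, and Lypd3 in Epcam-positive replicate 2.

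At day 2, Lor was the only epidermal gene called against MEF. It was 2.57 ± 0.374 CPM at day 2 and 0.15 ± 0.0419 CPM in MEF (SD, n = 2 each), a log2 change of 4.07 ± 0.80 (SE, here and below) with adjusted p = 0.0169 by edgeR's quasi-likelihood test. With 1 of 33 genes higher and 0 lower, the share called was near that of all 17004 tested genes, of which 2.87% were called higher and 2.65% lower. An unadjusted p under 0.05 was reached by 5 of the 33, a count not made over all genes. The fit with DESeq2 called 4 of the 33, and 2317 of all genes. Without any 1 of the 4 libraries compared, Lor lost its call (adjusted p up to 0.148). In the day 2 libraries 15 and 18 of the 34 genes had a count, against 12 and 11 in MEF, and Elovl4, at 10.2 and 8.77 CPM, took the largest part of the day 2 sum.

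By day 10, 17 of the 33 genes were higher than in MEF and none was lower, where 9.42% of all tested genes were called higher and 6.58% lower. The median fitted log2 change of the 33 was 7.34, or 4.95 with genes without a count in 1 group set at their lower bound, against 0.00 over all tested genes. By role, those called were 5 of 8 envelope precursors, 2 of 4 transglutaminases and caspase, 4 of 6 lipid barrier genes, 1 of 5 kallikreins and inhibitors, 3 of 5 secreted or metal-binding proteins and both surface or signalling proteins. None of the 3 suprabasal keratin and corneodesmosin genes was called. Genes with no count in MEF are given as a lower bound, from 3 counts over both MEF libraries. Mt4 was at least 6791-fold higher (edgeR adjusted p = 0.000271), Alox12b at least 4986-fold (adjusted p = 0.000187), and Calm4 at least 3278-fold (adjusted p = 0.00249). Lypd3 was at least 1228-fold higher (adjusted p = 0.000354), Aldh3b2 at least 1169-fold (adjusted p = 0.0017), Sprr1b at least 282-fold (adjusted p = 0.00335), and Serpinb5 at least 223-fold (adjusted p = 0.000851). Sfn, which MEF expressed, was higher by 5.53 ± 0.47 on the log2 scale (adjusted p = 0.000108).

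The other calls at day 10 were Aloxe3, Tgm5, Tgm1, Cnfn, Dmkn, Abca12, Sprr2a1, Sprr1a and Lor. Lor stood at 3.92 ± 0.437 CPM in day 10 iTEC (SD, n = 3). Without 1 library at a time, Abca12 lost its call in 9 of 13 fits (adjusted p up to 0.199) and Sprr2a1 in 7 of 13 (up to 0.176). Tgm1 lost it without day 10 replicate 3 or MEF replicate 2 (up to 0.0851), Lor (0.0522) and Tgm5 (0.0535) without MEF replicate 2, and Sprr1a without MEF replicate 1 (0.0568). Of genes above 5 CPM, Sbsn (adjusted p = 0.0636), Elovl4 (0.942) and Cdsn (0.713) were not called. Suprabasal Krt10 differed by 0.87 ± 0.58 on the log2 scale (adjusted p = 0.365).

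The test between day 10 and day 2 gave a like count of genes. Against day 2 iTEC, 15 of the 33 genes were higher at day 10 and none was lower, where 8.24% of all tested genes were called higher and 4.41% lower. The median fitted log2 change was 7.61, or 4.73 with bounds, against 0.02 over all tested genes. Alox12b was higher by 11.92 ± 1.08 (adjusted p = 0.000326), Mt4 by 11.31 ± 1.15 (adjusted p = 0.000556), Calm4 by 9.75 ± 1.59 (adjusted p = 0.00492) and Sfn by 4.94 ± 0.45 (adjusted p = 0.000211), all log2 changes from edgeR. Lypd3, with 3 or fewer counts at day 2, was higher by a ratio of 1327 (95% counting interval 454 to 6438; adjusted p = 0.000624). Aldh3b2 was at least 1264-fold higher (adjusted p = 0.00197), Serpinb5 at least 241-fold (adjusted p = 0.00101) and Dmkn at least 43.6-fold (adjusted p = 0.00409). Lor was at 2.57 CPM by day 2, and its level at day 10 was not called different (log2 0.61 ± 0.64, adjusted p = 0.651). Without day 2 replicate 1 or 2, 9 genes were called, and Aloxe3, Calm4, Cnfn, Sprr1a, Sprr1b, Tgm1 and Tgm5 lost their call in at least 1 of these fits (adjusted p up to 0.157). Sbsn lost its call in 9 of 13 fits without 1 library. The comparisons with MEF, day 2 and fetal TEC share libraries, so their counts are not independent of each other.

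Fetal TEC themselves expressed most of these skin genes. Against MEF, 27 of the 33 were higher in fetal TEC and none was lower, where 31.5% of all tested genes were called higher and 26.3% lower. The median fitted log2 change was 9.62, or 6.52 with bounds, against 0.18 over all tested genes. Among the largest were Alox12e, at least 18293-fold higher (edgeR adjusted p = 0.00402), Sprr2a1, at least 17992-fold (adjusted p = 0.00339), and Klk7, at least 1080-fold (adjusted p = 0.00327). Sfn was higher by 7.51 ± 0.52 on the log2 scale (adjusted p = 2.59e-05). Dmkn was at least 798-fold higher (adjusted p = 0.000384). All 5 kallikreins and inhibitors and all 5 secreted or metal-binding genes were called. Of the 27, Sprr2d, Krt1, Klk5 and Krtdap passed the filter on low counts through fetal TEC alone, so these 4 had to differ. Those not called were Sprr3, Cdsn, Tgm3, Casp14, Elovl4 and Abca12, the last without a count in either group. Leaving out 1 of the 4 libraries compared ended the calls of Krtdap, Klk8, Krt1, Krt10, Ivl, Sbsn, Spink5 or Sprr2d (adjusted p up to 0.132), and counts of calls ran from 20 to 28. Thymocyte genes were higher in the same libraries, at 1261 and 460 CPM in sum.

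Set against fetal TEC, day 10 iTEC differed in both directions. Of the 33 genes, 6 were higher and 13 were lower in day 10 iTEC, where 27.6% of all tested genes were called higher and 31.7% lower. Of the 13, Klk5, Sprr2d, Krtdap and Krt1 passed the filter on low counts through the fetal TEC libraries alone, so these 4 had to differ. The other 9 would have passed without them. Neither the 6 higher genes nor these 9 stood above the share of all genes. The median fitted log2 change of the 33 was -1.25, against -0.10 over all tested genes. It was -0.68 with an offset for transcript length, -0.82 with library size alone and -0.76 without fetal TEC replicate 2. The 6 higher genes were Mt4 (log2 7.64 ± 0.96, adjusted p = 0.000463), Alox12b (3.36 ± 0.69, adjusted p = 0.00419), Abca12 (at least 173-fold, adjusted p = 0.0149), Sprr1b (3.76 ± 1.09, adjusted p = 0.0169), Calm4 (3.85 ± 1.16, adjusted p = 0.0202) and Lypd3 (1.74 ± 0.67, adjusted p = 0.049), by edgeR. Mt4 averaged 167 CPM in day 10 iTEC and 0.843 CPM in fetal TEC, and Calm4 81.6 CPM in day 10 iTEC and 5.67 CPM in fetal TEC. With the same offset, used because the fetal TEC libraries differ in it, the log2 changes of the higher genes were 8.69 for Mt4, 3.90 for Alox12b, 5.05 for Sprr1b, 5.22 for Calm4 and 2.81 for Lypd3.

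The 13 lower genes included 4 of the 5 kallikreins and inhibitors, of which Klk5 passed the filter through fetal TEC alone. Klk7 was lower by a log2 change of -6.18 ± 1.33 (edgeR adjusted p = 0.00624) and Klk8 by -4.86 ± 1.13 (adjusted p = 0.00584). Among the others, Sfn changed by -1.98 ± 0.36 (adjusted p = 0.0018), Dmkn by -4.35 ± 0.72 (adjusted p = 0.00211) and Alox12e by -8.21 ± 1.74 (adjusted p = 0.00584). Sprr2a1, Spink5, Krt10 and Casp14 were also called. As a description, Klk5 was at least 394-fold lower in day 10 iTEC, Sprr2d at least 226-fold and Krtdap at least 533-fold, none with a count there. Tgm1 (log2 -0.09 ± 1.06), Tgm5 (-0.36 ± 0.95), Cnfn (0.08 ± 0.80) and Aldh3b2 (-0.52 ± 0.76) were not called, with standard errors that leave differences of severalfold possible either way. Elovl4 (-0.84 ± 0.37, adjusted p = 0.0706), Aloxe3 (2.49 ± 1.21, adjusted p = 0.104) and Serpinb5 (1.60 ± 0.67, adjusted p = 0.0694) were not called either.

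Several of these calls rested on single libraries. Casp14 and Krt10 each lost theirs in 10 of 13 fits without 1 library (adjusted p up to 0.444 and 0.159) and with the transcript length offset, Lypd3 in 9 (up to 0.177) and Spink5 in 7 (up to 0.13). Krt1 lost its call without any 1 day 10 library or fetal TEC replicate 2 (up to 0.0891). Calm4 (up to 0.112) and Abca12 (up to 0.0613) lost theirs without either fetal TEC library, Sprr1b without fetal TEC replicate 2 (0.0789), and Sprr2a1 without day 10 replicate 1 or 2 (up to 0.0515). Mt4, Alox12b, Alox12e, Dmkn, Sfn, Klk7 and Klk8 kept theirs in all 13 such fits. So did Klk5, Krtdap and Sprr2d, but these passed the filter through fetal TEC alone and had to differ. DESeq2's Wald test gave Sprr2d an adjusted p of 0.0587.

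**Figure D3:**
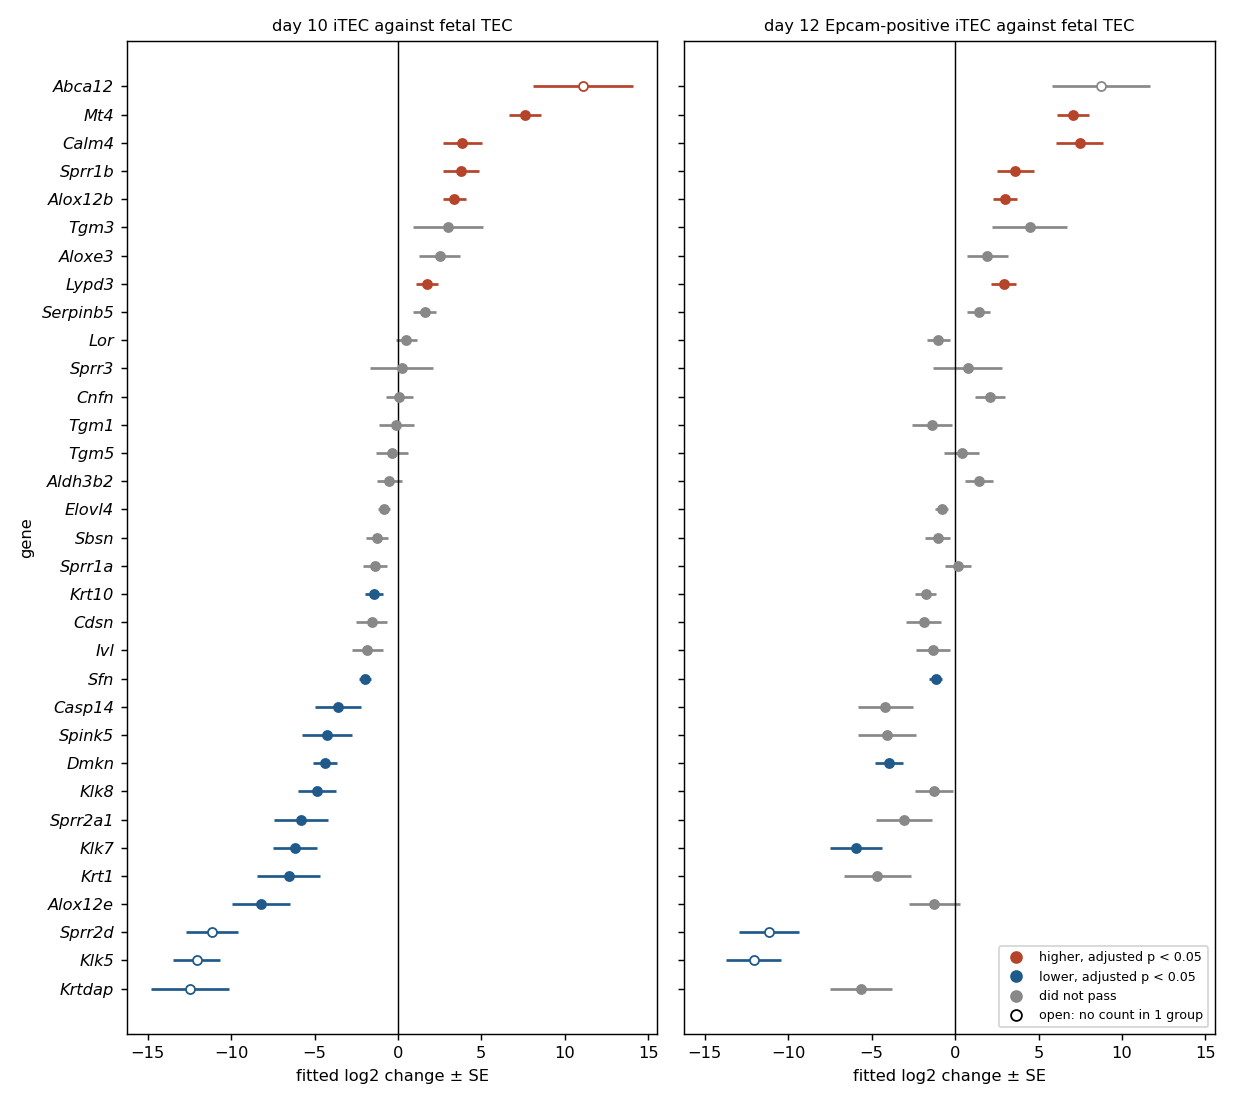
Fitted log2 change with its standard error for the 33 tested genes, in day 10 iTEC (left) and day 12 Epcam-positive iTEC (right) against fetal TEC, with genes in the order of the left panel and open points where 1 group had no count. Mt4 lies at 7.64 on the left and 7.08 on the right, and Klk7 at -6.18 on the left and -5.93 on the right.

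Epcam-positive cells were also set against fetal TEC. Here 5 of the 33 genes were higher and 5 lower in Epcam-positive cells, where 19.2% of all tested genes were called higher and 16.4% lower. Higher were Mt4 (log2 7.08 ± 0.95, adjusted p = 0.00117), Calm4 (7.46 ± 1.42, adjusted p = 0.00541), Alox12b (2.97 ± 0.71, adjusted p = 0.0135), Lypd3 (2.91 ± 0.74, adjusted p = 0.0174) and Sprr1b (3.59 ± 1.11, adjusted p = 0.0356), by edgeR. Lower were Dmkn (-3.95 ± 0.83, adjusted p = 0.0102), Klk7 (-5.93 ± 1.57, adjusted p = 0.0235), Sfn (-1.16 ± 0.40, adjusted p = 0.0457), Klk5 and Sprr2d. Klk5 and Sprr2d passed the filter through fetal TEC alone and so had to differ; Klk5 was at least 348-fold lower and Sprr2d at least 200-fold lower in Epcam-positive cells. The median fitted log2 change of the 33 was -1.05. It was -1.04 without Epcam-positive replicate 1, -0.99 without Epcam-positive replicate 2 and -0.45 without fetal TEC replicate 2. The count rests on the libraries used. In a fit of these 4 libraries alone, 1 of the 33 was called, and 219 of all genes. The main fit called 10 of the 33, and 6052 of all genes. Of these calls, Sprr1b was lost in 7 of the 13 fits without 1 library (adjusted p up to 0.13), Sfn in 9 (up to 0.258), Alox12b (up to 0.0711), Lypd3 (up to 0.0866) and Sprr2d (up to 0.0695) without either fetal TEC library, and Klk5 (0.058) and Klk7 (0.0837) without fetal TEC replicate 2. Mt4, Calm4 and Dmkn kept theirs in all 13.

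Among day 12 cells, Epcam-positive libraries held higher values of most epidermal genes than Epcam-negative ones, but the test called 1 of them. These 2 groups also differed in the sex of their cells, so sort and sex cannot be told apart here. The 2 groups did not overlap for 23 of the 33 genes, 22 of them with both Epcam-positive values higher, where groups did not overlap for 45.4% of all tested genes. Calm4 stood at 87.7 and 1916 CPM in Epcam-positive cells and 30 and 16.2 CPM in Epcam-negative cells, Aldh3b2 at 24.1 and 195 CPM in Epcam-positive cells and 7.56 and 5.7 CPM in Epcam-negative cells, and Sprr1a at 34.7 and 162 CPM in Epcam-positive cells and 7.37 and 3.16 CPM in Epcam-negative cells. For Calm4 and Aldh3b2 the Epcam-positive replicates differed from each other by more than replicate 1 differed from Epcam-negative cells. Sfn alone was called higher (log2 2.57 ± 0.42, edgeR adjusted p = 0.0494), where 0.241% of all tested genes were called higher and 0.0176% lower. An unadjusted p under 0.05 was reached by 19 of the 33, a count not made over all genes. DESeq2's Wald test called 15 of the 33, and 1808 of all genes. The Sfn call was lost in 11 of 13 fits without 1 library. The median fitted log2 change of the 33 was 2.66. It was 1.81 without Epcam-positive replicate 1 and 2.12 without Epcam-positive replicate 2.

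The Epcam-positive replicates did not share 1 profile of epidermal genes. Relative to the Epcam-negative mean, the median ratio over the 29 genes with a count in Epcam-negative cells was 4.49 in replicate 1 and 4.77 in replicate 2, but the genes behind it differed. Replicate 2 exceeded replicate 1 by a ratio of 226 for Alox12e, 27.6 for Klk8, 21.9 for Calm4 and 8.09 for Aldh3b2. It held less Cdsn (ratio 0.0686), Sprr3 (0.156), Dmkn (0.238) and Sprr1b (0.243), and had no count of 6 genes that replicate 1 held, Krt1, Spink5, Abca12 and Krtdap among them. Replicate 1 held macrophage genes at 223 CPM and replicate 2 at 53.9 CPM, and fibroblast genes summed to 32357 CPM in replicate 1 and 1915 CPM in replicate 2. In Epcam-negative cells fibroblast genes summed to 13093 and 12304 CPM. The 25 thymic epithelial genes summed to 5571 CPM in Epcam-positive replicate 1 and 31785 CPM in replicate 2.

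**Figure D4:**
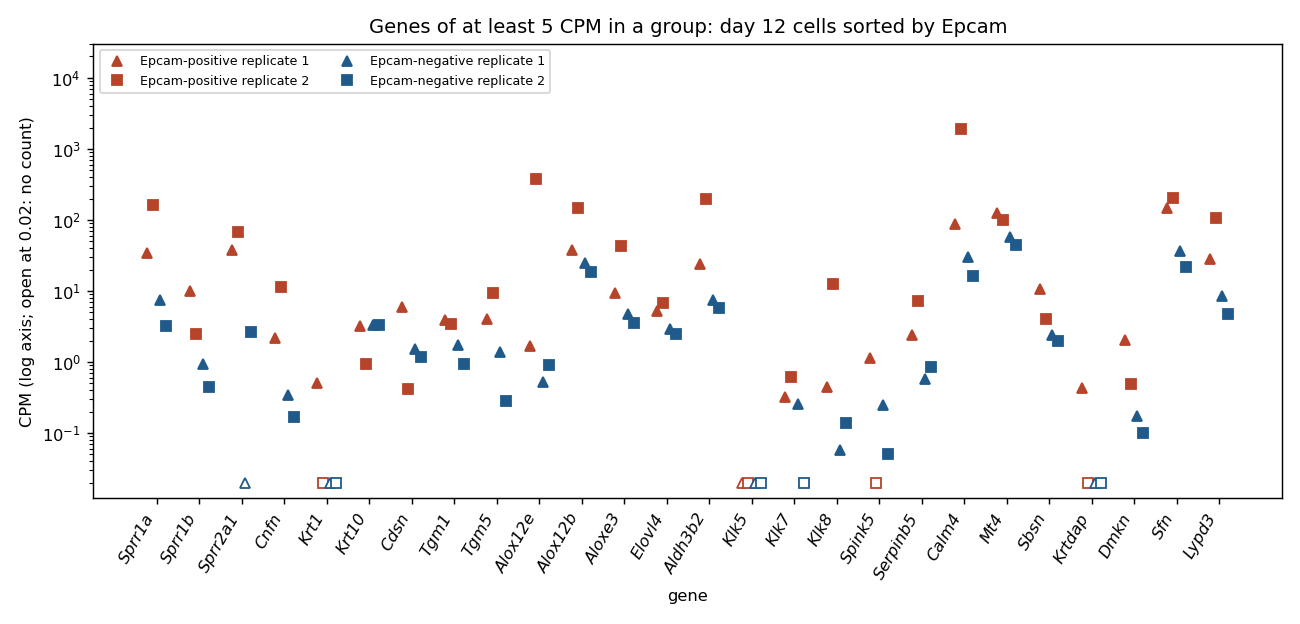
CPM (log axis) of the 26 genes that reached a mean of 5 CPM in a group, in Epcam-positive (red) and Epcam-negative (blue) cells of day 12, with 1 point per library and open points at 0.02 for no count. Epcam-positive replicate 2 reaches 1916 CPM for Calm4 and 379 CPM for Alox12e, where replicate 1 lies at 87.7 and 1.68 CPM.

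Epcam-negative cells nonetheless differed from MEF. In them 13 of the 33 genes were higher and none was lower, where 7.37% of all tested genes were called higher and 4.53% lower. The median fitted log2 change was 5.98, or 3.11 with bounds, against 0.00 over all tested genes, and 3.36 without Epcam-negative replicate 1. Mt4 was at least 2014-fold higher (edgeR adjusted p = 0.000558), Calm4 at least 890-fold (adjusted p = 0.00567), Alox12b at least 859-fold (adjusted p = 0.000483) and Aldh3b2 at least 263-fold (adjusted p = 0.00437). Lypd3 was at least 256-fold higher (adjusted p = 0.000993), Serpinb5 at least 30.3-fold (adjusted p = 0.004), and Sfn changed by 3.77 ± 0.44 on the log2 scale (adjusted p = 0.000671). The others called were Lor, Sprr1b, Cnfn, Tgm5, Aloxe3 and Dmkn. These 6 each lost their call without at least 1 library of the pair or of MEF (adjusted p up to 0.156). The count was 7 without either MEF library and 8 without Epcam-negative replicate 1. It was 23, with 20 higher and 3 lower, without both Epcam-positive libraries, where 6048 of all genes were called.

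Other genes of the keratinocyte programme were counted from lists drawn up beside the 35. Of 39 tested genes of the envelope and keratinocyte structure, 15 were higher and none was lower in day 10 iTEC than in MEF. Their median fitted log2 change was 5.51, or 3.36 with bounds. Over all tested genes, 9.42% were called higher and 6.58% lower in this comparison. Krt80, a keratin of differentiating epithelia, rose to 124, 123 and 120 CPM at day 10 against 0.484 and 0.401 CPM in MEF (log2 8.10 ± 0.43, edgeR adjusted p = 2.05e-05), and stood at 5.04 and 3.53 CPM in fetal TEC. Pkp1, a desmosomal plakophilin, stood at 134, 128 and 132 CPM in day 10 iTEC and 3.76 and 2.01 CPM in MEF (5.51 ± 0.73, adjusted p = 0.00104). The cross-linked envelope plakins Evpl (6.99 ± 1.14, adjusted p = 0.00339) and Ppl (6.08 ± 1.01, adjusted p = 0.00361) were also higher. Against fetal TEC, 5 of the 39 were higher and 15 lower in day 10 iTEC, with a median of -1.38, beside the 27.6% higher and 31.7% lower of all tested genes. For this list and those that follow, genes that passed the filter on low counts through fetal TEC alone were not sought. Any such gene had to come out lower in iTEC, so the counts of lower genes may include some. Krt80 was higher (4.83 ± 0.37, adjusted p = 2.13e-05), and Fabp5, a fatty acid binding protein (-5.40 ± 0.43, adjusted p = 3.1e-05), Sprr2a3 (-6.11 ± 0.86, adjusted p = 0.000785) and Asprv1, a protease that acts on filaggrin (-4.77 ± 0.88, adjusted p = 0.00201), were lower.

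Of 21 tested further genes of barrier lipids and proteases, 8 were higher and 1 lower in day 10 iTEC than in MEF. The shares of all tested genes were 9.42% higher and 6.58% lower. The median fitted log2 change of the 21 was 5.07, or 2.72 with bounds. Cers3, a ceramide synthase of the skin, was higher (log2 5.34 ± 0.69, edgeR adjusted p = 0.000882), as were Klk14 (at least 150-fold, adjusted p = 0.00122), Prss8 (at least 102-fold, adjusted p = 0.00134) and St14, the protease matriptase (4.57 ± 0.69, adjusted p = 0.0022). Against fetal TEC, 3 of the 21 were higher and 6 lower in day 10 iTEC, with a median of -1.22, where 27.6% of all tested genes were called higher and 31.7% lower, so neither count stood above that of all genes. Prss8 stood at 2.4, 2.43 and 2.77 CPM in day 10 iTEC and 29.6 and 58.3 CPM in fetal TEC (-4.12 ± 0.63, adjusted p = 0.00155), and Klk6 changed by -8.00 ± 1.55 (adjusted p = 0.00408). Abhd5, a lipase cofactor, ran the other way (2.97 ± 0.42, adjusted p = 0.000581).

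Of 19 transcription factors of keratinocytes, 10 were higher and none was lower in day 10 iTEC than in MEF. The shares of all tested genes were 9.42% higher and 6.58% lower. The median fitted log2 change of the 19 was 3.52, or 2.83 with bounds. Grhl1, a Grainyhead factor of the epidermis, stood at 90.5, 86.7 and 86.9 CPM in day 10 iTEC, 11.2 and 21.4 CPM in fetal TEC and 0.124 and 0.0802 CPM in MEF, and was higher at day 10 than in MEF (log2 9.70 ± 0.55, edgeR adjusted p = 2.4e-05) and than in fetal TEC (2.43 ± 0.38, adjusted p = 0.000851). Ovol1, a regulator of keratinocyte differentiation, was also higher at day 10 than in MEF (7.22 ± 0.97, adjusted p = 0.00115). Elf3, an epithelial ETS factor, was at least 52.1-fold higher than in MEF (adjusted p = 0.000587) but at 1.24 CPM stood far under the 142 CPM of fetal TEC (-6.84 ± 0.55, adjusted p = 5.99e-05). Against fetal TEC, 3 of the 19 were higher and 10 lower in day 10 iTEC, with a median of -1.64; of all tested genes 27.6% were called higher and 31.7% lower. Gata3 (-2.99 ± 0.48, adjusted p = 0.000983) and Vdr, the vitamin D receptor (-2.66 ± 0.42, adjusted p = 0.00101), were among the lower. Trp63, named here as a marker, the p63 factor of basal cells in all stratified epithelia, averaged 3.99 CPM in day 10 iTEC and 182 CPM in fetal TEC (-5.51 ± 0.99, adjusted p = 0.00181).

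Keratin markers of basal keratinocytes were lower in iTEC than in fetal TEC, and among iTEC Krt5 and Krt14 were highest in Epcam-positive cells. The basal marker Trp63 ran the other way among them. It stood at 0.989 and 0 CPM in Epcam-positive cells, 2.59 and 1.64 CPM in Epcam-negative cells, and 4.27, 3.64 and 4.06 CPM in day 10 iTEC. Krt5 stood at 21.6 and 21.9 CPM in Epcam-positive cells and 1.78 and 0.4 CPM in Epcam-negative cells, and Krt14 at 14.4 and 8.39 CPM in Epcam-positive cells and 0.546 and 0 CPM in Epcam-negative cells, neither called by edgeR between these 2 groups (adjusted p = 0.0649 for Krt5 and 0.16 for Krt14). The 7 basal and wound keratins summed to 202 and 152 CPM in Epcam-positive cells and 11.8 and 2.21 CPM in Epcam-negative cells. Krt5 averaged 5.07 CPM in day 10 iTEC and 363 CPM in fetal TEC (log2 -6.16 ± 0.61, edgeR adjusted p = 0.000248). Krt14, its partner in basal cells, averaged 3.67 CPM in day 10 iTEC and 287 CPM in fetal TEC (-6.29 ± 1.15, adjusted p = 0.0025). Krt17, a keratin of wounded and appendage epithelium, stood at 2.77, 1.43 and 1.42 CPM in day 10 iTEC and 2836 and 4658 CPM in fetal TEC (-10.96 ± 1.24, adjusted p = 0.000279). The wound keratins Krt6a and Krt16 reached more: Krt6a, whose reads may be split with its near copy Krt6b, stood at 19.3, 18.8 and 22.2 CPM in day 10 iTEC, 26.4 and 23.6 CPM in fetal TEC and 0 in MEF, and was at least 813-fold higher at day 10 than in MEF (adjusted p = 0.000756). Krt16 stood at 13.7, 14.1 and 13.3 CPM in day 10 iTEC, 35.3 and 51.1 CPM in fetal TEC and 0 in MEF, and was at least 558-fold higher at day 10 than in MEF (adjusted p = 0.000303). In all, 5 of the 7 basal and wound keratins were higher in day 10 iTEC than in MEF and none was lower. Of all tested genes, 9.42% were called higher and 6.58% lower there. Against fetal TEC, 5 of the 7 were lower and none was higher in day 10 iTEC, beside 31.7% lower and 27.6% higher of all tested genes. The median fitted log2 change of the 7 was 10.83 against MEF, or 7.22 with bounds, and -6.29 against fetal TEC.

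The 25 thymic epithelial genes were lower in day 10 iTEC than in fetal TEC for the most part. Their sum was 6459, 6382 and 6949 CPM in day 10 iTEC, 44233 and 53660 CPM in fetal TEC and 1157 and 1152 CPM in MEF. It was 5571 and 31785 CPM in Epcam-positive cells and 5550 and 6363 CPM in Epcam-negative cells. Against MEF, 8 were higher and 5 lower in day 10 iTEC, where 9.42% of all tested genes were called higher and 6.58% lower. Against fetal TEC 2 were higher and 19 lower, where 27.6% of all tested genes were called higher and 31.7% lower. Their median fitted log2 change was 0.63 against MEF and -3.52 against fetal TEC. Psmb11, the thymoproteasome subunit of cortical TEC, stood at 70.7, 66.3 and 66.7 CPM in day 10 iTEC and 1786 and 2834 CPM in fetal TEC (log2 -5.09 ± 0.56, edgeR adjusted p = 0.000159). Prss16, a thymic serine protease, stood at 1.5, 1.51 and 1.96 CPM in day 10 iTEC and 11555 and 14180 CPM in fetal TEC (-12.92 ± 1.38, adjusted p = 0.000137). Krt8, a keratin of simple epithelia, changed by -2.51 ± 0.75 (adjusted p = 0.0168), Dll4, the Notch ligand of the thymus, by -1.12 ± 0.40 (adjusted p = 0.0383), and the chemokine Ccl25 by -1.29 ± 0.72 (adjusted p = 0.144).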

How the data were processed

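The authors deposited 1 table of raw counts of reads, with a row per gene symbol and a column for each of 13 libraries, and the values carry no scaling. The submitters' processing notes name FastQC, Trimmomatic, HISAT2, SAMtools, StringTie and DESeq2 and the build mm10, but no version. Strandedness and the handling of reads from near-identical genes are not given in the sources used here. Per the labels' protocols, RNA came from spin columns with DNase treatment; 1 protocol text covers all samples.

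The fit used edgeR 4.0.16 in R 4.3.3, with TMM scaling, filterByExpr (17004 genes kept) and the robust quasi-likelihood F test. It held the 13 libraries and a mean for each of 6 groups, and its common dispersion was 0.296. P-values of each of 8 comparisons were adjusted by Benjamini-Hochberg over all genes kept, with calls at an adjusted p under 0.05. Because the spread is estimated jointly, the 2 unlike Epcam-positive libraries bear on each comparison. For a gene at 0 in a group, the fold is bounded by setting that group to 3 counts in total. Where a group held between 1 and 3 counts, the ratio of the groups is printed with its 95% interval from counting. Bounds and intervals cover counting error only. List sums use library size alone. Lengths and positions came from GENCODE M21, and promoters from RefSeq on GRCm38.p6. The steps were tested on simulated data.

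The genes, lists and tests were chosen with earlier results of these data known. Values by library are given for genes of at least 5 CPM in some group, with some day 2 values given only as an upper limit. Named with tests are up to 8 called genes per direction, up to 4 genes of each other list, 5 thymic genes, Foxn1 and Epcam. Replicates were compared first: the closest pair, day 10 replicates 1 and 2, differed by 1.81 times the chi-square expected from counting alone, so none was merged. Alternatives were DESeq2 1.42.0 size factors and Wald test, library size alone, other filters, a fit of only the groups compared, the 10 libraries without length skew, a transcript length offset, a replicate block, and each library left out. Other work used Python 3.11.15 with pandas 2.3.3 and matplotlib 3.10.9.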

Additional observations from a re-analysis of the deposited data

How the results depend on the processing

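Against MEF, the count of called epidermal genes ran from 12 to 23 at day 10, and from 20 to 28 in fetal TEC, when each library was left out in turn; for day 10 iTEC against fetal TEC it ran from 13 to 23. Those 3 counts stayed within 1.5 times the reported 17, 27 and 19 under every alternative run. At day 2 against MEF, 1 gene was called, and 4 with DESeq2's Wald test, 2 with only the groups compared, 5 in the 10 libraries without length skew and 2 without both Epcam-positive libraries, an alternative chosen after the data were seen; leaving out 1 library gave 0 to 2. At day 10 against day 2, 15 were called, and 23 with DESeq2's Wald test, 27 with only the groups compared and 23 in the 10 libraries; leaving out 1 library gave 9 to 21. In Epcam-negative cells against MEF, 13 were called, and 20 with DESeq2's Wald test, 24 in the 10 libraries and 23 without both Epcam-positive libraries; leaving out 1 library gave 7 to 23. In Epcam-positive against Epcam-negative cells, 1 was called, and 0 with DESeq2 size factors, with library size alone, without a filter and with only the groups compared, 15 with DESeq2's Wald test and 13 in the 10 libraries; leaving out 1 library gave 0 to 16. In Epcam-positive cells against fetal TEC, 10 were called, and 1 with only the groups compared; leaving out 1 library gave 4 to 17. Counts over all genes shifted too. At day 2 against MEF 938 of all genes were called, and 2317 with DESeq2's Wald test. The count was 2949 with only the groups compared, 6438 in the 10 libraries and 3861 without both Epcam-positive libraries. At day 10 against day 2 it was 2151, and 3722 with DESeq2's Wald test. It was 10927 there with only the groups compared and 8373 in the 10 libraries. In Epcam-negative cells against MEF 2025 of all genes were called, and 3769 with DESeq2's Wald test. That count was 8671 in the 10 libraries and 6048 without both Epcam-positive libraries. In Epcam-positive against Epcam-negative cells 44 of all genes were called, and 1808 with DESeq2's Wald test and 1651 in the 10 libraries. In Epcam-positive cells against fetal TEC 6052 were called, and 219 with only the groups compared. The cause of these shifts was not tested.

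Replicate numbers did not pair the libraries: deviations of same-numbered libraries had correlations of -0.215 to 0.116. With the number as a replicate block, the counts were 0 at day 2 against MEF, 8 in Epcam-negative cells against MEF, 0 in Epcam-positive against Epcam-negative cells, 4 in Epcam-positive cells against fetal TEC, and elsewhere within 1.5 times those reported. Counts over all genes moved more: at day 10 against MEF 2720 genes were called, 7959 with only the groups compared, 9231 in the 10 libraries, 1040 with the block and 1028 to 6650 with 1 library left out. In Epcam-positive against Epcam-negative cells the count was 44, and 0 to 9546 with 1 library left out. Of the log2 changes of single genes under all alternatives, 5348 kept their side of the threshold, 254 passed it newly and 227 lost it. None that was called in either fit changed direction. Changes of direction among genes called in neither fit were not counted. The length difference of the fetal TEC libraries cannot be told apart from their group.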
